A study of Homo sapiens with 14 samples.

Results

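The 32 genes described here are known estrogen-induced genes of breast cancer cells. They were listed by name, but with earlier results of these data known, so shares over the members are descriptions only. Of the 32, 31 had a probe set named for them among the 19775 genes measured, and RBBP8 was not analysed here. All samples were LY2, an established tamoxifen-resistant breast cancer cell line related to MCF-7, so each result is that of 1 line. The study asked how the coactivator SRC-1, encoded by NCOA1, shapes gene expression in these cells with and without tamoxifen. Each of the 14 arrays carried RNA of cells transfected with 40 nM siRNA, either scrambled (control siRNA) or directed at SRC-1 (SRC1 siRNA). After 24 hours the cells received 100 nM 4-hydroxytamoxifen, or 0.01% ethanol as vehicle (called untreated), for 2 hours. There were 4 untreated and 4 tamoxifen-treated control-siRNA arrays, 4 untreated SRC1-siRNA arrays, and 2 tamoxifen-treated SRC1-siRNA arrays, which carry the replicate numbers 1 and 3. All the cells had been kept in 10 nM 4-hydroxytamoxifen and 10% stripped serum without phenol red, and then without the drug for 72 hours, so no group received added estrogen.

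Estrogen receptor alpha, the product of ESR1, is a transcription factor that binds DNA when estrogen occupies it and then recruits coactivators of the SRC family to raise transcription of its targets. Tamoxifen's active metabolite 4-hydroxytamoxifen occupies the same pocket and mostly favours corepressors, although it can act as a partial agonist at some genes. Resistant cells grow despite the drug, and SRC-1 is one of the cofactors studied in that setting.

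Values are log2 signals as deposited, in which a difference of 1 is a doubling, and each gene is represented by its brightest probe set by mean over the 14 arrays. Levels of different genes are not compared, since probe sets differ in how they report RNA. Differences are given on the log2 scale ± standard error from limma, fitted over 54613 probe sets and all 14 arrays, and a gene was called at a Benjamini-Hochberg adjusted p under 0.05. Where 4 array values follow each other they are in the order of replicates 1 to 4, and a pair of values is in the order of replicates 1 and 3. The labels call the replicates biological. In bulk RNA, fewer cells of a kind and less RNA per cell cannot be told apart.

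NCOA1, the gene targeted by the siRNA, read 11.14, 11.52, 11.37 and 11.18 on the untreated control-siRNA arrays against 10.32, 9.96, 10.01 and 10.54 with SRC1 siRNA. With tamoxifen it read 11.26, 11.29, 11.53 and 11.12 against 10.38 and 10.01. The groups did not overlap, and the differences were -1.10 ± 0.14 (limma adjusted p = 6.39e-04) and -1.11 ± 0.17 (limma adjusted p = 0.00196). All 10 luminal epithelial markers lay above 3.47, the median level of all probe sets, and their mean ranged from 11.98 to 12.10 over the 14 arrays. ESR1 was among them, with a mean of 12.65, and differed by -0.10 ± 0.05 with SRC1 siRNA in untreated cells (limma adjusted p = 0.197). PGR, the progesterone receptor gene and a textbook estrogen target, had a mean of 3.94, close to that median. All 6 immune and all 6 endothelial markers measured lay at or below the median level, as did 7 of 8 fibroblast and 4 of 6 basal and mesenchymal markers. Array medians ranged from 3.44 to 3.51.

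Of the 31 genes, 30 had a mean above 3.47 and only SUSD3, a membrane protein gene, lay below it. Over all 19775 genes 12264 lay above that level, which is a median and not a limit of detection. The members' variation over the 14 arrays was small: 9 genes spanned less than 0.5 log2 units and 6 spanned more than 1. TFF1, the trefoil peptide gene long used as a marker of estrogen action, read 13.54, 13.56, 13.57 and 13.56 on the untreated control-siRNA arrays. It read 13.59, 13.62, 13.55 and 13.62 with SRC1 siRNA, 13.50, 13.49, 13.54 and 13.49 with tamoxifen, and 13.55 and 13.56 with both. AGR2, a protein disulfide isomerase of secretory cells, ranged only from 13.12 to 13.25, and TPD52L1, a tumor protein D52 family member, from 12.94 to 13.14. These 3 were the brightest members, and the signals of these brightest probe sets all stayed within a narrow band. Dimmer probe sets differed more with SRC1 siRNA in untreated cells, though none was called. For TPD52L1 the difference was -0.34 against -0.07 for the brightest, and for AGR2 0.19 against -0.02. The 3 dimmest were SUSD3, which ranged from 2.77 to 3.41, TFF3, a further trefoil peptide gene, which ranged from 4.30 to 4.81, and KRT13, described below.

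The members that come up least in what follows were called in none of the comparisons by their brightest probe set. Among the secreted proteins, IGFBP4, which binds insulin-like growth factors, ranged from 10.86 to 11.65 over the 14 arrays. SERPINA1, a protease inhibitor, ranged from 7.55 to 8.15, and OLFM1, an olfactomedin family member, from 9.44 to 9.71. Among the nuclear regulators, CCND1, the cyclin D1 gene, spanned 0.24 log2 units and reached 12.24, MYB, a transcription factor, ranged from 11.62 to 12.22, and SIAH2, a ubiquitin ligase, from 8.90 to 9.20. FHL2, a LIM-domain cofactor, was more variable, from 8.68 to 9.58. ADCY9, an adenylyl cyclase, ranged from 7.46 to 7.83, IL17RB, an interleukin receptor, from 7.73 to 8.41, and CA12, a carbonic anhydrase, from 11.40 to 11.78. CTSD, the lysosomal protease cathepsin D, ranged from 9.08 to 9.70, and HSPB8, a small heat shock protein, from 9.68 to 10.33.

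**Figure D1:**
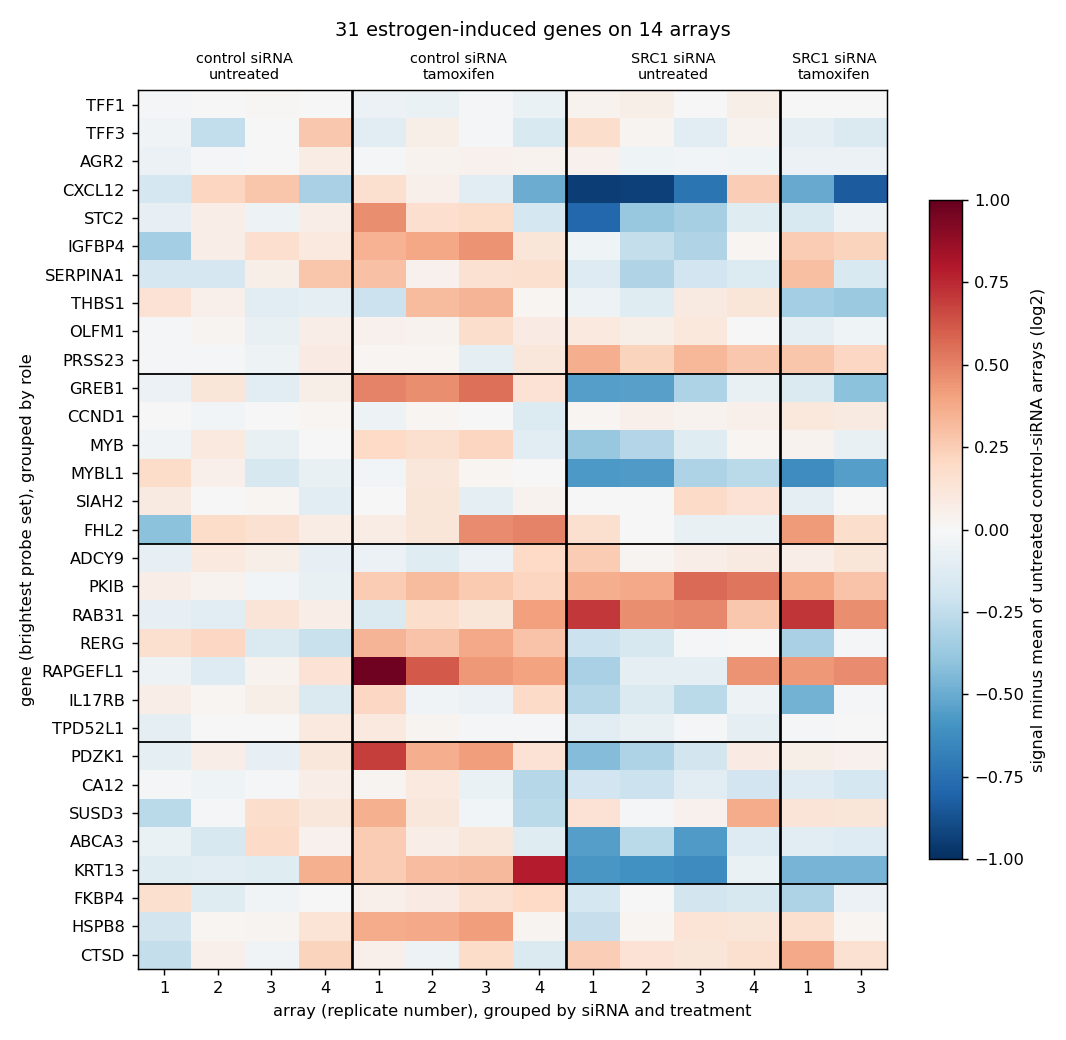
Signal of the 31 genes (rows, grouped by role) on the 14 arrays (columns, by group and replicate number), as the log2 difference from the gene's mean on the 4 untreated control-siRNA arrays, with colours ending at 1 in either direction. PKIB, PRSS23 and RAB31 are red and MYBL1 is blue on the untreated SRC1-siRNA arrays, and GREB1, RAPGEFL1 and PDZK1 are red on the control-siRNA tamoxifen arrays.

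In untreated cells, SRC1 siRNA changed 5 of the 31 genes: PKIB, PRSS23 and RAB31 rose, and MYBL1 and ABCA3 fell. By role, 1 of 10 secreted and matrix genes (PRSS23), 1 of 6 nuclear regulators (MYBL1), 2 of 7 signalling genes (PKIB and RAB31), 1 of 5 membrane and structural genes (ABCA3) and 0 of 3 chaperone and lysosome genes passed. The share that rose was 9.68% against 5.97% of all genes, and the share that fell was 6.45% against 5.98%. In both directions together 16.1% of the members were called, and 16.3% of genes above the median level were called, so the members' share was near the background. The median difference was -0.02 over the members and 0.00 over all genes.

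PKIB, an inhibitor of the cyclic AMP-dependent protein kinase, read 9.74, 9.71, 9.65 and 9.60 with control siRNA and 10.04, 10.05, 10.24 and 10.21 with SRC1 siRNA. Every SRC1-siRNA array was above every control array, a 1.37-fold difference of 0.46 ± 0.06 (limma adjusted p = 6.39e-04). PRSS23, a secreted serine protease, read 11.56, 11.57, 11.53 and 11.66 against 11.94, 11.80, 11.91 and 11.85. These groups were also apart, by 0.29 ± 0.05 (limma adjusted p = 0.00442), and all 3 of its probe sets above the median level were called, with differences of 0.29 to 1.01. RAB31, a small GTPase of vesicle transport, read 10.15, 10.12, 10.36 and 10.30 against 10.94, 10.70, 10.71 and 10.50, without overlap. Its difference was 0.48 ± 0.12 (limma adjusted p = 0.0194), and with replicate number as a term in the fit the adjusted p was 0.0743.

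MYBL1, a transcription factor of the MYB family, read 10.87, 10.74, 10.53 and 10.61 with control siRNA and 10.11, 10.12, 10.38 and 10.42 with SRC1 siRNA. The groups did not overlap, and the difference was -0.43 ± 0.09 (limma adjusted p = 0.00689). The call rests on that probe set: with the mean of the gene's probe sets the difference was -0.05 (limma adjusted p = 0.638). ABCA3, a lipid transporter, read 9.60, 9.51, 9.86 and 9.71 against 9.12, 9.40, 9.10 and 9.54. Here the groups overlapped, the difference was -0.38 ± 0.11 (limma adjusted p = 0.0385), and with the replicate term the adjusted p was 0.122. ABCA3 kept its call in 13 of 22 alternative analyses, RAB31 in 17, MYBL1 in 21, and PKIB and PRSS23 in all 22.

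Several well-known targets did not pass. GREB1, a chromatin-bound cofactor of the receptor, read 10.92, 11.10, 10.87 and 11.04 with control siRNA against 10.43, 10.44, 10.67 and 10.91. Its difference of -0.37 ± 0.12 did not pass in the main fit (limma adjusted p = 0.0589). It passed with probe sets at or below the median level left out (limma adjusted p = 0.046). The same held for eBayes with trend and robust settings (limma adjusted p = 0.037). CXCL12, a chemokine, read 7.99, 8.38, 8.44 and 7.84 against 7.22, 7.23, 7.43 and 8.41, and differed by -0.59 ± 0.24 (limma adjusted p = 0.145). STC2, a secreted glycoprotein, read 11.76, 11.91, 11.79 and 11.91 against 11.06, 11.46, 11.51 and 11.72, and differed by -0.40 ± 0.14 (limma adjusted p = 0.0809). In all 3 of these genes replicate 4 was the highest of the SRC1-siRNA arrays. Without that array 9 members were called, GREB1 (-0.47, limma adjusted p = 0.0147), CXCL12 (-0.87, limma adjusted p = 0.00719), STC2 (-0.50, limma adjusted p = 0.0372) and KRT13 (-0.61, limma adjusted p = 0.0133) among them. Leaving out control-siRNA tamoxifen replicate 4, which enters only through the shared spread, also gave 9, while leaving out replicate 1 of either untreated group gave 3. The share of all genes called in these refits is not given here, so the counts do not set the members apart. With the replicate term 4 members were called, PKIB, PRSS23, MYBL1 and KRT13 (-0.48, limma adjusted p = 0.0055), against 4.76% of all genes. Groups did not overlap for 4 members that lay higher with SRC1 siRNA (PRSS23, CCND1, PKIB and RAB31; 9.02% of all genes) and 3 that lay lower (STC2, MYBL1 and CA12; 9.40%).

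The stretches below are the 250 bases before an annotated start of 4 of the 5 called genes, shown so that motifs of the receptor and of its partner factors can be read beside the genes that moved. The response element of the receptor is built of a pair of facing arms. They are from RefSeq on GRCh38.p14, on the gene's strand, and capitals mark matches to the receptor arm GGTCA, the SP1 motif GGGCGG or the AP-1 motif TGANTCA, on either strand.
PKIB, chr6:122652479-122652728, plus strand: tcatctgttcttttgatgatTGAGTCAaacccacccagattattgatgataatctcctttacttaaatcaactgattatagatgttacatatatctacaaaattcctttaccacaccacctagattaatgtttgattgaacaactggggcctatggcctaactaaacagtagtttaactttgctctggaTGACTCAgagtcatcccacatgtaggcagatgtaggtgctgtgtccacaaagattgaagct
PRSS23, chr11:86790821-86791070, plus strand: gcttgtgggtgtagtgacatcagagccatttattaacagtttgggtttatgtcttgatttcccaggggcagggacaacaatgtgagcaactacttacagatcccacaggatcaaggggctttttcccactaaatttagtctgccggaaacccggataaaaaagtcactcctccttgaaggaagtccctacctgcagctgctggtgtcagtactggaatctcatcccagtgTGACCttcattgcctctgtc
RAB31, chr18:9708051-9708300, plus strand: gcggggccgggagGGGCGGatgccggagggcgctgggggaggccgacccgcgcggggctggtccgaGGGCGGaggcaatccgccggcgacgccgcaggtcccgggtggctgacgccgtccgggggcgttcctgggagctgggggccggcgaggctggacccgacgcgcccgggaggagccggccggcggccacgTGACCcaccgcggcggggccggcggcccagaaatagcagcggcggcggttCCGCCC
ABCA3, chr16:2340729-2340978, minus strand: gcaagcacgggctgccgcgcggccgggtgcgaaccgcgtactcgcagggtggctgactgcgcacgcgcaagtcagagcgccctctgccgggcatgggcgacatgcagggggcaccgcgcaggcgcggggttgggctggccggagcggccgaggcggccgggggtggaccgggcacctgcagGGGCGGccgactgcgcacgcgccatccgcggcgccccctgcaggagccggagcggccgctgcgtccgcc
The PKIB stretch holds 2 AP-1 matches, beginning 230 and 61 bases before the start. PRSS23 has an arm 20 bases before this start, RAB31 has an arm at 56 bases and SP1 matches at 237, 184 and 6 bases, and ABCA3 has 1 SP1 match at 69 bases. PKIB and PRSS23 have further annotated starts, and those shown were picked after the matches were seen, as the ones that hold an AP-1 match or an arm. The other PRSS23 start has 5 SP1 matches and no arm, and the other PKIB starts have SP1 matches and no AP-1 match in the same 250 bases. For 22 of the 31 genes the table held 32 promoters of 300 bases, which reach 50 bases past the start. An arm was present in 37.5% of them and in 37.4% of all 35116 promoters, and the SP1 motif in 65.6% and 45.0%. The AP-1 motif was in 3.12% against 7.71%, the 1 member promoter being that of PKIB. The full response element, 2 facing arms with 3 bases between them, was in 0 of 32 and in 0.057% of all promoters. These shares leave out the 9 members that had no promoter there: TFF1, TFF3, GREB1, CCND1, MYBL1, RERG, KRT13, FKBP4 and ADCY9. All the matches given are of letters only, and receptor binding was not measured.

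With tamoxifen, SRC1 siRNA changed 7 of the 31 genes: PRSS23 rose, and MYBL1, GREB1, KRT13, RERG, THBS1 and FKBP4 fell. By role these were 2 of 10 secreted and matrix genes, 2 of 6 nuclear regulators, 1 of 7 signalling genes, 1 of 5 membrane and structural genes and 1 of 3 chaperone and lysosome genes. The share that fell was 19.4% against 8.71% of all genes, and the share that rose was 3.23% against 6.49%. Among the 12264 genes above the median level, 1418 fell and 1016 rose. In both directions 22.6% of members were called against 19.8% of genes above the median level. The median difference was -0.10 over the members and -0.03 over all genes, and 22 of 31 differences were negative. Only 2 arrays stand on the SRC1 side, and with the replicate term 2 members remained called (MYBL1 and KRT13), against 2.70% of all genes.

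MYBL1 read 10.66, 10.80, 10.71 and 10.69 with control siRNA and 10.07 and 10.14 with SRC1 siRNA, well apart, and fell by 0.60 ± 0.10 (limma adjusted p = 0.0035; 0.0433 with the replicate term). As in untreated cells the call rests on 1 probe set. With the mean of the gene's probe sets, the others of which lie near or below the median level, the difference was -0.19 (limma adjusted p = 0.0904). GREB1 read 11.48, 11.45, 11.53 and 11.13 against 10.84 and 10.57, which is 1.62-fold lower. Its groups did not overlap, and the difference was -0.69 ± 0.14 (limma adjusted p = 0.00787; 0.0665 with the replicate term). With the mean of its probe sets, the others of which lie below the median level, it was -0.17 (limma adjusted p = 0.194). KRT13, a keratin of stratified epithelium, read 4.84, 4.89, 4.91 and 5.37 against 4.12 and 4.12. That was the most negative difference among the members, -0.88 ± 0.19 (limma adjusted p = 0.00913; 0.0101 with the replicate term), at a signal not far above the median of all probe sets. In untreated cells KRT13 read 4.46, 4.47, 4.46 and 4.94 against 4.00, 3.98, 3.95 and 4.52.

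RERG, a small GTPase named for its regulation by estrogen, read 10.26, 10.21, 10.30 and 10.21 against 9.60 and 9.91, and both of its probe sets were called. The difference was -0.49 ± 0.12 (limma adjusted p = 0.0178; 0.0909 with the replicate term). THBS1, a matrix glycoprotein, read 10.94, 11.47, 11.50 and 11.18 against 10.82 and 10.79, and differed by -0.47 ± 0.13 (limma adjusted p = 0.0373; 0.149 with the replicate term). Its 5 probe sets above the median level disagreed, with differences from -0.66 to 0.52. FKBP4, a cochaperone of steroid receptors, read 12.28, 12.31, 12.38 and 12.43 against 11.92 and 12.17, and differed by -0.31 ± 0.09 (limma adjusted p = 0.0408; 0.182 with the replicate term). PRSS23 read 11.60, 11.60, 11.49 and 11.69 against 11.86 and 11.79, higher by 0.23 ± 0.07 (limma adjusted p = 0.0362; 0.139 with the replicate term). PKIB read 9.93, 9.99, 9.94 and 9.89 against 10.06 and 9.96, and its difference here was 0.07 ± 0.07. RAB31 read 10.09, 10.41, 10.35 and 10.64 against 10.95 and 10.70. Its difference of 0.45 ± 0.14 did not pass (limma adjusted p = 0.0521), but did with quantile normalization (limma adjusted p = 0.0453). THBS1, PRSS23 and FKBP4 lost their calls when only the compared arrays were fitted. FKBP4 also lost its call with quantile normalization, and PRSS23 with median centring. Leaving out SRC1-siRNA tamoxifen replicate 1 left 1 call, that of GREB1, and leaving out control-siRNA tamoxifen replicate 2 or 3 left 4.

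Groups did not overlap for 10 members that lay lower with SRC1 siRNA (AGR2, CXCL12, THBS1, OLFM1, GREB1, MYBL1, RERG, PDZK1, KRT13 and FKBP4), where 23.0% of all genes did so. For 4 members that lay higher (TFF1, PRSS23, CCND1 and RAB31) the background was 15.9%. The untreated and tamoxifen knockdown comparisons share no array. Of the 31 members 26 had the same sign in both, 9 positive and 17 negative, which is 83.9% against 63.2% of all genes and 70.1% of genes above the median level. PRSS23 and MYBL1 were called in both.

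**Figure D2:**
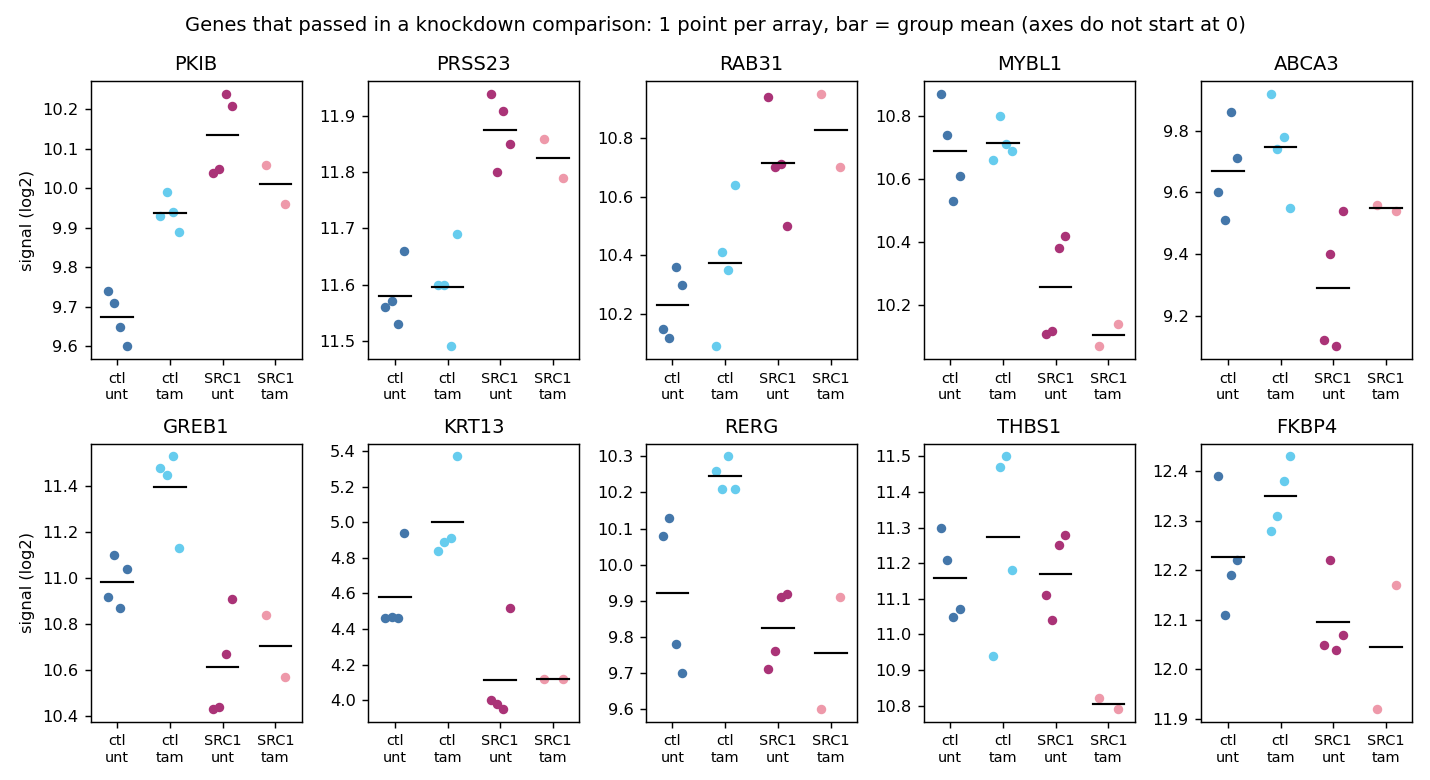
Log2 signal of called members on each array, by group. Each panel has its own axis, which does not start at 0; points are arrays, bars are group means, ctl is control siRNA, unt untreated and tam tamoxifen. PKIB and PRSS23 sit higher on all untreated SRC1-siRNA arrays than on the untreated control-siRNA arrays, and MYBL1 sits lower.

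**Figure D3:**
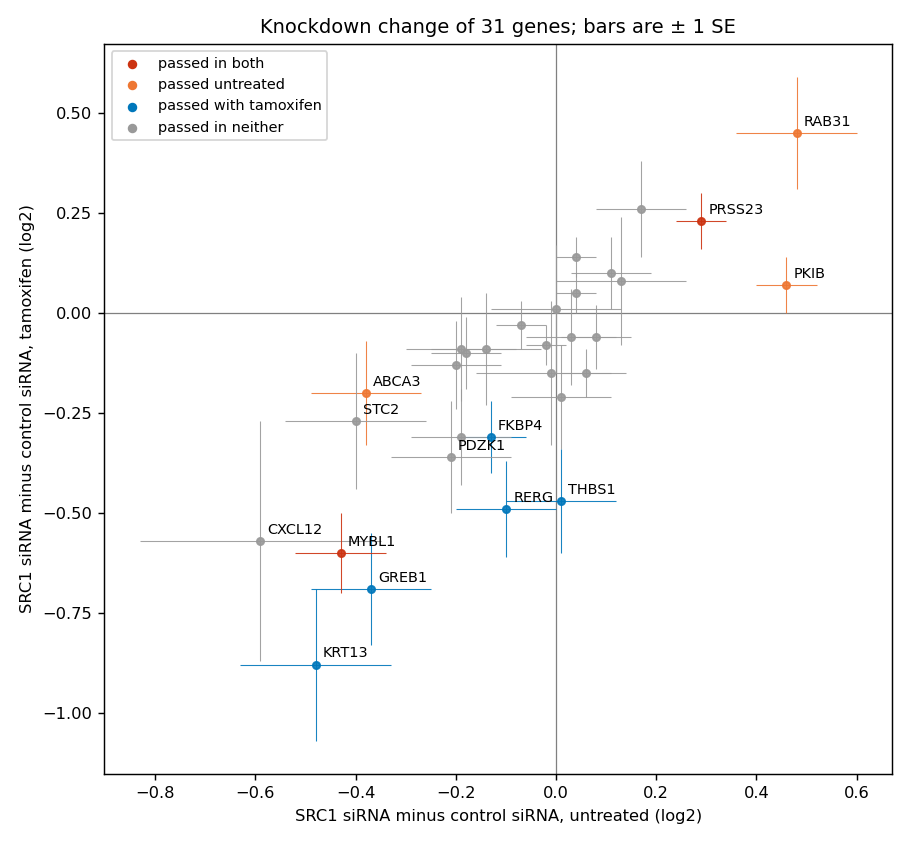
Log2 difference between SRC1 and control siRNA for the members, in untreated cells (horizontal axis) and with tamoxifen (vertical axis), with bars of 1 standard error and colours for the comparison in which a gene was called. MYBL1 lies at -0.43 and -0.60, PRSS23 at 0.29 and 0.23, and GREB1 at -0.37 and -0.69.

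After 2 hours of tamoxifen in control-siRNA cells no member was called by limma, where 0.248% of all genes were, although 8 of the 31 (25.8%) had an unadjusted p under 0.05 in the fits with and without the replicate term. Over all genes 17.0% did so without that term and 9.81% with it. Among the 12264 genes above the median level, 2402 did so without it and 1480 with it. The differences leaned upward: 25 of 31 (80.6%) were positive, against 51.6% of all genes, and the median was 0.08 against 0.00. The mean over the members was 9.76, 9.82, 9.83 and 9.86 on the untreated arrays and 9.99, 9.97, 9.97 and 9.89 with tamoxifen, without overlap, while the mean over all genes ranged from 6.25 to 6.28 on these 8 arrays. Groups did not overlap for 5 members that lay higher (5.55% of all genes) and 0 that lay lower (4.48%).

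Those 5 were GREB1, PKIB, RERG, RAPGEFL1 and PDZK1. RAPGEFL1, a guanine nucleotide exchange factor-like protein, read 7.91, 7.83, 7.99 and 8.10 untreated and 8.93, 8.57, 8.39 and 8.36 with tamoxifen, a difference of 0.61 ± 0.15 (limma adjusted p = 0.0993). PDZK1, a scaffold for membrane transporters, read 10.69, 10.85, 10.70 and 10.90 against 11.48, 11.15, 11.20 and 10.93, a difference of 0.41 ± 0.12 (limma adjusted p = 0.140). The difference was 0.42 ± 0.12 for GREB1 (limma adjusted p = 0.126), 0.26 ± 0.06 for PKIB (limma adjusted p = 0.0745) and 0.32 ± 0.10 for RERG (limma adjusted p = 0.149). None of the 5 passed, so these are values and not changes. TFF1 differed by -0.05, with a 95% interval from -0.14 to 0.03, and CCND1 by -0.04, with an interval from -0.14 to 0.05.

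In SRC1-siRNA cells tamoxifen also gave 0 called members by limma (0.819% of all genes), with 4 at an unadjusted p under 0.05 and 3 with the replicate term. The 4 are 12.9% of the members, near the 13.7% of all genes, and the 3 are 9.68%, against 6.45% of all genes. The median difference was 0.01, and the mean over the members was 9.69, 9.69, 9.74 and 9.87 untreated against 9.81 and 9.78. IGFBP4, FHL2, CCND1 and TPD52L1 lay higher without overlap (8.21% of all genes), and AGR2, THBS1 and OLFM1 lay lower (12.7%). The difference of the responses, the interaction of siRNA and tamoxifen, was called for 0 members by limma and for 0.172% of all genes. At an unadjusted p under 0.05 it held 4 members (12.9%, against 15.7% of all genes), so this count does not set the members apart. They were PKIB (-0.39 ± 0.09, limma adjusted p = 0.0799), THBS1 (-0.48 ± 0.17, limma adjusted p = 0.193), RERG (-0.40 ± 0.15, limma adjusted p = 0.219) and OLFM1 (-0.22 ± 0.08, limma adjusted p = 0.183). The interaction was -0.32 ± 0.18 for GREB1 and -0.41 ± 0.24 for KRT13, so a knockdown call with tamoxifen only is not shown to differ from the untreated comparison. These comparisons share arrays with those above and are not independent of them.

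**Figure D4:**
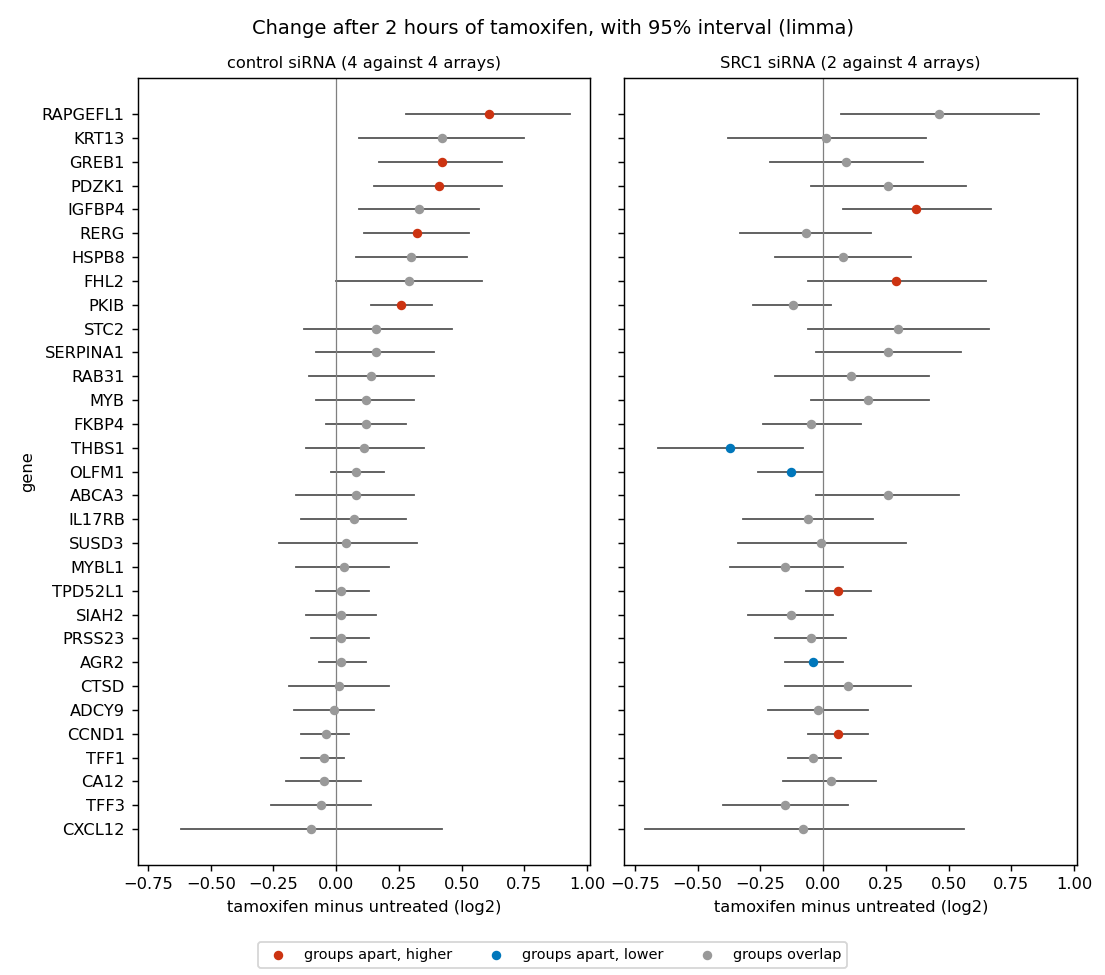
Log2 difference after 2 hours of tamoxifen for the 31 genes, left panel control siRNA and right panel SRC1 siRNA, with 95% intervals from limma; red and blue points are genes whose groups did not overlap, higher and lower. In control-siRNA cells 25 of 31 points lie above 0, and RAPGEFL1 lies at 0.61.

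Other genes of the pathway were read from further lists. Of 23 further estrogen-induced genes measured, SRC1 siRNA raised 1 and lowered 3 in untreated cells, and raised 1 and lowered 7 with tamoxifen. Over all genes 5.97% rose and 5.98% fell in untreated cells, and 6.49% rose and 8.71% fell with tamoxifen. Those shares are the background for the knockdown calls of the lists that follow too. The median difference of these 23 genes was -0.11 untreated and -0.06 with tamoxifen, against 0 and -0.03 over all genes. EGR3, an immediate-early transcription factor, was higher by 1.51 ± 0.29 (limma adjusted p = 0.00551) and by 1.91 ± 0.35 (limma adjusted p = 0.00484). ELOVL2, a fatty acid elongase, fell by 0.85 and by 1.14, PTGES, a prostaglandin E synthase, by 0.56 and by 0.49, and SLC22A5, a carnitine transporter, by 0.43 and by 0.33. NPY1R (-0.35), SLC27A2 (-0.35), CALCR (-0.63) and EFEMP1 (-0.53) were called lower with tamoxifen only. With the replicate term 3 of these genes were called in untreated cells and 1, EGR3, with tamoxifen, against 4.76% and 2.70% of all genes. Of 8 genes lowered by estrogen, BLNK rose by 0.35 and BIK fell by 0.28 in untreated cells, and BLNK (0.41) and YPEL3 (0.51) rose with tamoxifen, and with the replicate term 0 of these 8 genes were called in either comparison. Of 14 receptor and coregulator genes, ESR2 (-0.60 ± 0.15, limma adjusted p = 0.0235; 0.0831 with the replicate term) was called besides NCOA1 in untreated cells and NCOA1 alone with tamoxifen. NRIP1, a corepressor of the receptor, was higher after tamoxifen in SRC1-siRNA cells by 0.71 ± 0.14 (limma adjusted p = 0.0297; 0.234 with the replicate term). Among the cell type markers, KRT8 (0.31), CDH1 (-0.27) and PECAM1 (0.73) were called in untreated cells, and CDH5 (-0.36) with tamoxifen. With the replicate term the first 3 were not called (limma adjusted p = 0.122, 0.0588 and 0.0862). In SRC1-siRNA cells tamoxifen lowered 1 of 6 endothelial markers, where 0.819% of all genes were called, and 0 of 6 with the replicate term. The part of these markers in the members' differences was not tested.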

How the data were processed

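RNA of 14 cultures was amplified with a NuGEN kit and then hybridised, per the labels' protocols, on HG-U133 Plus 2.0 arrays from Affymetrix. The deposited values are one log2 signal per probe set and array, and the log2 scale was read from their range. R 2.9.2 is named per the submitters' processing notes, and for background correction and normalization the method is not given in the sources used here. Values were used as deposited. Of 54675 probe sets 62 array controls were left out. GEO's platform annotation gave 41091 of the others 1 gene symbol, 1801 several and 11721 none, and only those with 1 symbol name a gene. The 31 members have 74 probe sets. limma 3.58.1 in R 4.3.3 (lmFit and eBayes, 4 group means, 14 arrays, two-sided) was used. It was also run on simulated data with independent noise on each array. That noise had no link to replicate number, so the run does not vouch for calls made without the replicate term. The number of arrays limits the precision.

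The members and lists were chosen with earlier results of these data known. Values per array are given, in the groups discussed, for members called in any of the 5 contrasts, filled to 12 by the smallest unadjusted p. Of the 3 brightest and 3 dimmest, TFF1 and KRT13 have values per array and the rest have ranges. CXCL12 and STC2 were added outside this rule. Genes of other lists are named where called, except 1 endothelial marker that was lower after tamoxifen in SRC1-siRNA cells. ESR1, PGR and NCOA1 are named in any case. Alternatives were the replicate number as a term, centring, quantile normalization, averaging the probe sets of a gene, the compared arrays alone, and each array left out. One description field counts the line name upward from sample to sample, so the cell line tag, LY2 throughout, was used. Whether differences between replicate numbers were removed before deposit is not stated, and if so p-values without that term would be too small.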

Additional observations from a re-analysis of the deposited data

Results flagged for a closer look

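In groups of 4 arrays, 5 of 93 sets of member values held an array far from the other 3 by Dixon's ratio, where chance gives about 1 in 20. KRT13 stood apart on replicate 4 in all 3 groups of 4: it read 4.94 with the nearest array at 4.47 (untreated control siRNA), 4.52 with the nearest at 4.00 (untreated SRC1 siRNA) and 5.37 with the nearest at 4.91 (control siRNA with tamoxifen). HSPB8, a small heat shock protein gene, read 9.94 on replicate 4 of control siRNA with tamoxifen, where the nearest array read 10.28. AGR2 read 13.16 on replicate 1 of that group, where the nearest read 13.21.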

How the results depend on the processing

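No called member reversed its direction in any of the 22 alternatives run. The shares of all genes called in the fits with arrays left out are not given here, so those counts have no background. In untreated cells, where 5 members were called, leaving out 1 array gave 3 to 9 calls. Leaving out all arrays numbered 4, an alternative chosen after seeing the data, gave 9. With tamoxifen, where 7 were called, leaving out 1 array gave 1 to 8, and the replicate block gave 2. Fitting only the arrays compared gave 4. The mean difference over the members moved from -0.16 to -0.11 with the mean of each gene's probe sets. For tamoxifen in control-siRNA cells, leaving out all arrays numbered 4 gave 1 call, KRT13 (0.42, limma adjusted p = 0.0283). The cause was not tested. Over 18 pairs of arrays that share a replicate number, deviations from the group means correlated at -0.686 to 0.162, with a median of -0.393. All 12 pairs that differ in siRNA were negative (-0.686 to -0.259), while the 6 of 1 siRNA ranged from -0.26 to 0.162. The numbers are therefore not independent of the values, but same-numbered arrays did not deviate together, and no pairing of the samples was taken from them. Signal over background limits SUSD3, KRT13 and TFF3 most.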

Other observations

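Some members had further probe sets that were called where the brightest was not. With tamoxifen, SRC1 siRNA lowered 2 other probe sets of IL17RB, an interleukin receptor gene, by 0.68 and by 0.64 (limma adjusted p = 0.00916 and 0.0345), while the brightest differed by -0.31. A dimmer CXCL12 probe set fell by 0.65 (limma adjusted p = 0.0267) against -0.57 for the brightest, and an OLFM1 probe set by 0.30 (limma adjusted p = 0.0126) against -0.15. In untreated cells that OLFM1 probe set fell by 0.32 (limma adjusted p = 0.00304), while the brightest differed by 0.06, the opposite sign. For CA12 a dimmer probe set fell by 0.64 with tamoxifen (limma adjusted p = 0.00282) and another by 0.79 in untreated cells (limma adjusted p = 0.00952), against -0.10 and -0.18 for the brightest. In untreated cells 2 dimmer FKBP4 probe sets were called lower. Its 4 probe sets above the median level differed by -0.61 to -0.13, the brightest by -0.13. Averaging the probe sets of FKBP4 gave -0.35 (limma adjusted p = 0.0304). A dimmer CCND1 probe set was called higher in untreated cells, by 0.33 against 0.04 for the brightest. These probe sets were singled out after their values were seen.

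Replicates 4 and 1 held many extreme values of the members. The untreated SRC1-siRNA replicate 4 was the highest of its group for 15 of 31, and the control-siRNA tamoxifen array of that number was the lowest of its group for 16 of 31. Among genes above the median level the shares were 26.3% and 34.5%, against 48.4% and 51.6% of the members. The untreated control-siRNA replicate 4 was the highest for 14 of 31 (45.2%, against 27.5%). Replicate 1 was the lowest for 13 of 31 (41.9%) in both untreated groups, against 28.2% with control siRNA and 26.3% with SRC1 siRNA.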
